A study of Arabidopsis with 22 samples.

Results

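The comparison of *lux-1* with Col-0 at ZT13 used 6 of the 22 RNA-seq libraries of the series, chosen by their labels: 3 of *lux-1* and 3 of Col-0, all collected 13 h after light onset and so 1 h after the start of the night. The plants were Arabidopsis, 25 days old, kept in 12 h of light and 12 h of dark, and taken whole. The *lux-1* line carries a single nonsense allele in the Col-0 accession, and Col-0 is its wild type. A *lux-1* effect below means the difference between lines with and without this allele. Other differences between those lines were not tested and cannot be told apart from it in this contrast. The libraries set beside them were *lux-1* and Col-0 at ZT1, 1 h after light onset (3 each), and *acd6-1lux-1* and *acd6-1* at ZT13 (2 each). *acd6-1* is a gain-of-function allele of *ACD6* with constitutive defense, and the double mutant came from a cross of the single mutants. None of those libraries enters the *lux-1* and Col-0 groups at ZT13. Values are RPKM, which scales a transcript's reads by its length and by its library's mapped reads. Log2 fold changes are *lux-1* over Col-0 on the scale log2(RPKM + 1), which understates the change of weakly expressed genes.

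*LUX* encodes a MYB-like DNA-binding protein. With ELF3 and ELF4 it forms the evening complex, which gathers around dusk and represses its targets into the night. Its known targets include clock genes such as *PRR9*, *PRR7*, *GI* and *LUX* itself, and the growth regulators *PIF4* and *PIF5*. Plants without a working evening complex lose clock rhythms under constant conditions, elongate and flower early. ZT13 therefore falls in the part of the day when the complex is normally present.

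The 6 libraries had between 11628138 and 14252869 mapped reads, 80.3 to 81.1% of their reads. Across genes, Pearson correlations of log2 values were 0.982 to 0.989 among the *lux-1* libraries and 0.991 to 0.995 among the Col-0 libraries. *lux-1* replicate 2 correlated least with Col-0 (0.976 to 0.983) and stood apart. Counts by list without it are given below where they moved by 2 or more. Of the other libraries, *acd6-1lux-1* replicate 3 of ZT1 had 60.5% of its reads mapped. In the main fit it entered only the shared estimate of the spread and the filter that set which genes were tested.

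Of 21666 genes tested, 148 were called higher and 47 called lower in the *lux-1* libraries at ZT13 relative to Col-0, with an adjusted p below 0.1 and a log2 fold change beyond 1. These are 0.683% and 0.217% of the tested genes, and 0.9% together. The 3 *lux-1* values did not overlap with the 3 Col-0 values for 186 of the 195 called genes, against 19.1% of all tested genes. The calls compare the same 6 libraries, so this share largely follows from them. Without the fold criterion, 451 genes were higher (2.08%) and 401 lower (1.85%). The median log2 fold change of all tested genes was -0.03. Leaving out *lux-1* replicate 2 gave 129 higher and 53 lower genes, and leaving out replicate 1 gave 231 and 44. Of the 195 called genes, 60 belonged to one of 23 gene lists of known function, which had 570 tested entries. The lists were written with earlier results of these data known, so this count partly follows from that choice.

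The core clock list rose more than it fell. Of its 40 tested members, 15 passed the test as higher in *lux-1* and 0 as lower, and the list's median log2 fold change was 0.20. The member with the largest change was *LUX* itself. It had 71.4, 81.0 and 75.6 RPKM in the *lux-1* libraries, against 6.10, 6.28 and 6.84 RPKM in the Col-0 libraries (log2 fold change 3.38, SE 0.18, adjusted p = 1.1e-09). The transcript of the mutated gene was thus present and more abundant in all 3 *lux-1* libraries. A read count over the whole transcript does not show the nonsense mutation, so it does not check the label. The gene next to *LUX* in the annotation, AT3G46630, moved the same way, with 60.7, 53.0 and 55.2 RPKM in *lux-1*, while Col-0 had 18.5, 20.7 and 19.7 RPKM (log2 fold change 1.47, SE 0.10, adjusted p = 6.0e-08).

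*GI*, which links the clock to flowering, had 5.25, 9.48 and 7.04 RPKM in *lux-1*, against 1.12, 0.697 and 0.897 RPKM in Col-0 (log2 fold change 2.09, SE 0.15, adjusted p = 9.1e-08). *PRR7*, a repressor of *CCA1* and *LHY*, had 13.5, 16.6 and 13.8 RPKM in *lux-1*, against 3.86, 3.18 and 3.53 RPKM in Col-0 (log2 fold change 1.79, SE 0.09, adjusted p = 9.9e-10). The groups did not overlap for either gene. *LNK1* and *LNK2* encode coactivators that work with REVEILLE MYB proteins. *LNK1* had 4.50, 8.33 and 5.38 RPKM in *lux-1*, against 0.556, 0.330 and 0.619 RPKM in Col-0 (log2 fold change 2.203, SE 0.16, adjusted p = 9.1e-08). *LNK2* had 7.11, 10.4 and 7.07 RPKM in *lux-1*, against 3.00, 2.198 and 2.66 RPKM in Col-0 (log2 fold change 1.33, SE 0.14, adjusted p = 1.5e-05). Their related members *LNK3* and *LNK4* also passed, at log2 fold changes of 1.29 and 0.92. *LNK3* lost its call under 6 of the 19 alternatives, among them those without *lux-1* replicate 2 or 3 and without Col-0 replicate 2 or 3.

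In every one of these 4 *LNK* genes and in *GI*, the highest *lux-1* value was that of replicate 2. *PRR5* was also highest in replicate 2, with 4.52, 12.1 and 7.66 RPKM in *lux-1*, while Col-0 had 2.45, 2.80 and 3.32 RPKM (log2 fold change 1.16, SE 0.27, adjusted p = 0.024). Without *lux-1* replicate 2 *PRR5* and *CCA1*, the morning MYB gene, did not pass the test, like *LNK3*. *PRR5* also lost its call without Col-0 replicate 1, and *CCA1* without Col-0 replicate 3. *CCA1* stayed low in both groups, at 0.765, 2.52 and 1.28 RPKM in *lux-1*, against 0.471, 0.346 and 0.355 RPKM in Col-0 (log2 fold change 0.80, SE 0.19, adjusted p = 0.03). Its partner *LHY* did not pass, with 1.18, 1.63 and 0.936 RPKM in *lux-1*, against 0.666, 0.833 and 0.962 RPKM in Col-0 (adjusted p = 0.15). *PRR9* varied widely between the *lux-1* libraries, at 0.157, 2.84 and 1.02 RPKM, against 0.489, 0.199 and 0.230 RPKM in Col-0, and did not pass (adjusted p = 0.27).

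The remaining clock members that passed changed by a log2 of less than 1. *TOC1*, the evening repressor of morning genes, had 67.2, 70.8 and 69.9 RPKM in *lux-1*, against 41.6, 39.9 and 45.9 RPKM in Col-0 (log2 fold change 0.70, SE 0.12, adjusted p = 0.0022). *PRR3*, which stabilizes TOC1, had 28.1, 26.3 and 27.8 RPKM in *lux-1*, while Col-0 had 14.4, 14.3 and 13.9 RPKM (log2 fold change 0.90, SE 0.13, adjusted p = 5.6e-04). Both were tight within each group and did not overlap. *ELF4-L2*, *RVE1*, *RVE7* and *RVE8* also passed, at log2 fold changes of 0.85, 0.89, 0.79 and 0.62. In a fit of the 6 libraries alone, 9 clock members passed as higher in place of 15, and without replicate 2 12 did.

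The genes of the partners of LUX in the evening complex did not pass the test. *ELF3*, its scaffold, had 44.3, 43.3 and 40.3 RPKM in *lux-1*, against 43.2, 43.3 and 47.9 RPKM in Col-0 (adjusted p = 0.89, log2 fold change -0.07). *ELF4* had 11.6, 42.4 and 23.2 RPKM in *lux-1*, against 33.8, 33.6 and 31.1 RPKM in Col-0 (adjusted p = 0.56, log2 fold change -0.52), and its *lux-1* values spread on both sides of those of Col-0. *BOA*, the closest relative of *LUX*, had 19.9, 20.8 and 23.0 RPKM in *lux-1*, against 18.7, 17.9 and 18.3 RPKM in Col-0 (adjusted p = 0.7, log2 fold change 0.20), without overlap.

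**Figure D1:**
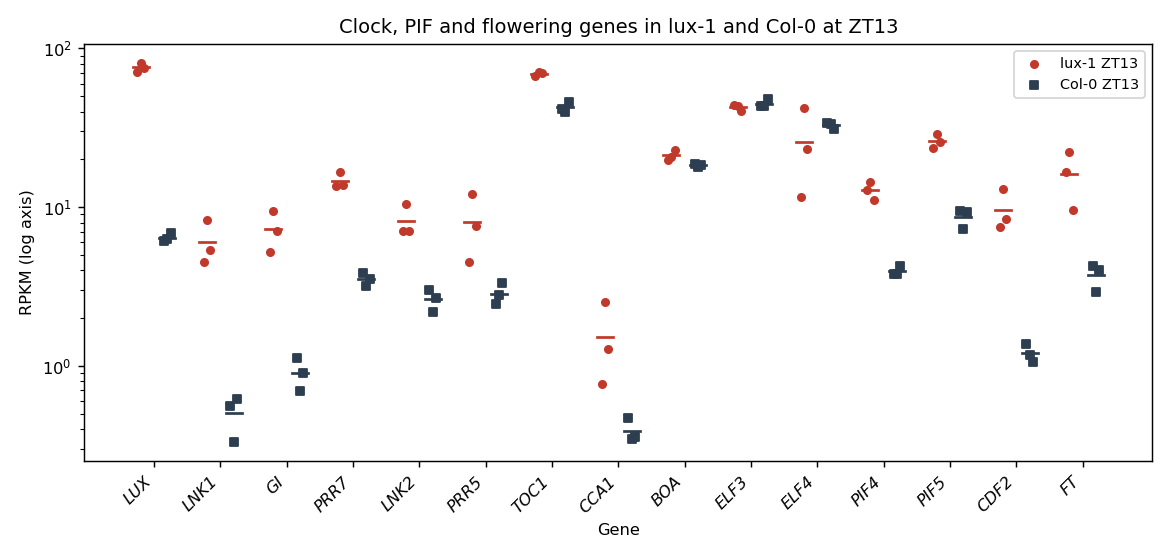
RPKM (log axis) of 15 clock, PIF and flowering genes at ZT13 in the 3 *lux-1* libraries (red circles) and the 3 Col-0 libraries (dark squares), with a line at each group's mean. *LUX* lies at 71.4 to 81.0 RPKM in *lux-1*, far above its 6.10 to 6.84 RPKM in Col-0, while the groups of *ELF3* and *ELF4* overlap.

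Of the PHYTOCHROME INTERACTING FACTOR genes, *PIF4*, *PIF5* and *PIF7* were higher in *lux-1*. Their bHLH proteins promote elongation, and those of *PIF4* and *PIF5* are degraded upon light. *PIF4* had 12.8, 14.4 and 11.1 RPKM in *lux-1*, against 3.79, 3.80 and 4.26 RPKM in Col-0 (log2 fold change 1.47, SE 0.13, adjusted p = 1.6e-06). *PIF5* had 23.6, 29.0 and 25.6 RPKM in *lux-1*, against 9.45, 7.29 and 9.27 RPKM in Col-0 (log2 fold change 1.49, SE 0.11, adjusted p = 9.7e-08). *PIF7* changed less, with 12.6, 10.9 and 11.3 RPKM in *lux-1*, while Col-0 had 9.06, 6.95 and 8.54 RPKM (log2 fold change 0.46, SE 0.12, adjusted p = 0.043), and lost its call under 4 of the 19 alternatives, among them those without *lux-1* replicate 1 or Col-0 replicate 2. Of the 34 tested genes of the growth, PIF and auxin list, 6 passed as higher and 0 as lower, with a list median of 0.13. The others were *PRE1*, *HFR1* and *PIL1*, small or atypical bHLH genes of the shade response, at log2 fold changes of 1.36, 0.97 and 0.53. *PRE1* and *PIL1* lost their calls under 5 and 8 of the 19 alternatives. Only 3 of the 34 passed without Col-0 replicate 2 and in a fit of the 6 libraries alone. *PIF4* and *PIF5* passed under every alternative tried.

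Of the 31 tested flowering-time genes, 10 passed as higher in *lux-1* and 0 as lower, with a list median of 0.21. *FT*, the mobile flowering signal made in leaves, had 16.7, 22.1 and 9.59 RPKM in *lux-1*, against 4.23, 2.92 and 3.99 RPKM in Col-0 (log2 fold change 1.80, SE 0.27, adjusted p = 7.0e-04). Its relative *TSF* had 2.79, 3.71 and 1.29 RPKM in *lux-1*, against 1.14, 0.399 and 0.153 RPKM in Col-0 (log2 fold change 1.19, SE 0.25, adjusted p = 0.013). Every *lux-1* value exceeded every Col-0 value for both. *FUL*, a MADS-box gene that acts after *FT*, had 33.7, 19.0 and 23.8 RPKM in *lux-1*, against 8.73, 7.12 and 6.56 RPKM in Col-0 (log2 fold change 1.62, SE 0.22, adjusted p = 2.5e-04). *SOC1*, a floral integrator, had 87.4, 87.7 and 81.2 RPKM in *lux-1*, while Col-0 had 59.2, 54.3 and 60.4 RPKM (log2 fold change 0.55, SE 0.09, adjusted p = 0.002).

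The CYCLING DOF FACTOR genes, which repress *CO* and *FT* in the morning, rose in the same libraries. *CDF2* had 7.45, 12.95 and 8.47 RPKM in *lux-1*, against 1.38, 1.17 and 1.06 RPKM in Col-0 (log2 fold change 2.24, SE 0.18, adjusted p = 4.7e-07). *CDF3* had 6.17, 7.05 and 5.67 RPKM in *lux-1*, against 1.66, 1.77 and 1.504 RPKM in Col-0 (log2 fold change 1.46, SE 0.13, adjusted p = 1.1e-06). *CDF1* had 9.35, 11.3 and 10.8 RPKM in *lux-1*, against 5.37, 6.26 and 6.05 RPKM in Col-0 (log2 fold change 0.73, SE 0.11, adjusted p = 5.5e-04). *CO*, their target, did not pass, at 3.61, 3.90 and 3.57 RPKM in *lux-1*, against 3.22, 2.06 and 2.82 RPKM in Col-0 (adjusted p = 0.47). *FLC*, the vernalization repressor, had 4.73, 7.91 and 7.42 RPKM in *lux-1*, while Col-0 had 6.26, 4.39 and 6.17 RPKM (adjusted p = 0.85).

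Among the sharpest differences between the groups were those of light-signaling genes of the B-box zinc finger family, which help to set responses to light. *BBX28* had 9.75, 10.9 and 9.56 RPKM in *lux-1*, against 0.384, 0.313 and 0.482 RPKM in Col-0 (log2 fold change 2.99, SE 0.11, adjusted p = 9.4e-12). *STO* (also BBX24) had 85.9, 88.3 and 81.4 RPKM in *lux-1*, against 14.05, 12.6 and 14.97 RPKM in Col-0 (log2 fold change 2.54, SE 0.10, adjusted p = 1.5e-11). Both were low and tight in Col-0 and several times higher in each *lux-1* library. *STH* had 8.21, 8.83 and 8.96 RPKM in *lux-1*, against 2.04, 1.86 and 2.26 RPKM in Col-0 (log2 fold change 1.66, SE 0.16, adjusted p = 5.4e-06). *BBX18* had 4.54, 5.67 and 6.55 RPKM in *lux-1*, while Col-0 had 1.16, 0.811 and 1.09 RPKM (log2 fold change 1.70, SE 0.14, adjusted p = 4.3e-07). *COL5* had 34.0, 46.9 and 32.8 RPKM in *lux-1*, against 12.2, 10.8 and 11.6 RPKM in Col-0 (log2 fold change 1.62, SE 0.14, adjusted p = 1.7e-06). *BBX29* passed as well, at a log2 fold change of 1.80. *ELIP1*, which encodes an early light-inducible chlorophyll-binding protein, had 38.4, 49.2 and 44.3 RPKM in *lux-1*, against 4.83, 6.92 and 3.03 RPKM in Col-0 (log2 fold change 2.97, SE 0.33, adjusted p = 2.6e-05).

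Not the whole B-box and light-signaling list moved this way. Of its 44 tested members, 13 passed as higher and 3 as lower, and the list median was -0.01. The lower members were *BBX15*, *BBX14* and *COL4*. *BBX15* had 95.8, 74.4 and 73.5 RPKM in *lux-1*, against 139, 126 and 127 RPKM in Col-0 (log2 fold change -0.69, SE 0.14, adjusted p = 0.012). With the reads rescaled by median of ratios, 1 of the 3 still passed as lower. In a fit of the 6 libraries alone, 8 members passed as higher.

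Genes of the light-harvesting antenna formed the other large light-related group. Their proteins bind chlorophyll around the photosystems, and their transcripts peak in the day. *LHCB2.1* and *LHCB2.2*, near-identical copies that may share reads, encode an antenna protein of photosystem II. *LHCB2.2* had 94.4, 83.1 and 96.8 RPKM in *lux-1*, against 20.9, 21.4 and 24.9 RPKM in Col-0 (log2 fold change 1.98, SE 0.13, adjusted p = 2.3e-08). *LHCB2.1* had 82.8, 75.1 and 88.9 RPKM in *lux-1*, against 21.3, 19.3 and 21.0 RPKM in Col-0 (log2 fold change 1.95, SE 0.14, adjusted p = 6.0e-08). *LHCB3* had 918, 824 and 909 RPKM in *lux-1*, while Col-0 had 297, 310.1 and 331 RPKM (log2 fold change 1.496, SE 0.11, adjusted p = 9.1e-08). The antenna gene of photosystem I *LHCA4* had 1716, 1688 and 1712 RPKM in *lux-1*, against 562, 569 and 607 RPKM in Col-0 (log2 fold change 1.56, SE 0.11, adjusted p = 5.3e-08). These levels in *lux-1* were above the Col-0 night level but far below the morning level. In the ZT1 libraries *LHCB3* averaged 8213 ± 1037 RPKM in *lux-1*, against 8573 ± 350.4 RPKM in Col-0 (SD, n = 3 each).

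Of the 42 tested light-harvesting and photosystem genes, 14 passed as higher and 0 as lower at ZT13, and the list median was 0.19. *LHCB4.2* and *LHCB6*, minor antenna genes of photosystem II, were among them, at log2 fold changes of 0.98 and 0.87. Between 13 and 14 members passed without any single library.

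Chlorophyll synthesis genes divided. *CAO*, which makes chlorophyll b, had 34.0, 30.2 and 32.7 RPKM in *lux-1*, against 10.5, 10.9 and 10.3 RPKM in Col-0 (log2 fold change 1.52, SE 0.12, adjusted p = 4.4e-07). *CHLH*, a subunit of magnesium chelatase, had 231, 197 and 206 RPKM in *lux-1*, against 92.2, 101 and 90.7 RPKM in Col-0 (log2 fold change 1.15, SE 0.09, adjusted p = 1.9e-07). *CRD1* and *HEMA1* passed at log2 fold changes of 0.62 and 0.57. *GLK1*, a transcription factor that activates antenna and chlorophyll genes, went the other way, with 94.3, 83.3 and 90.3 RPKM in *lux-1*, against 129, 124 and 124 RPKM in Col-0 (log2 fold change -0.49, SE 0.07, adjusted p = 5.4e-04). Thus 4 of the 19 tested members passed as higher and 1 as lower, with a list median of 0.01.

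**Figure D2:**
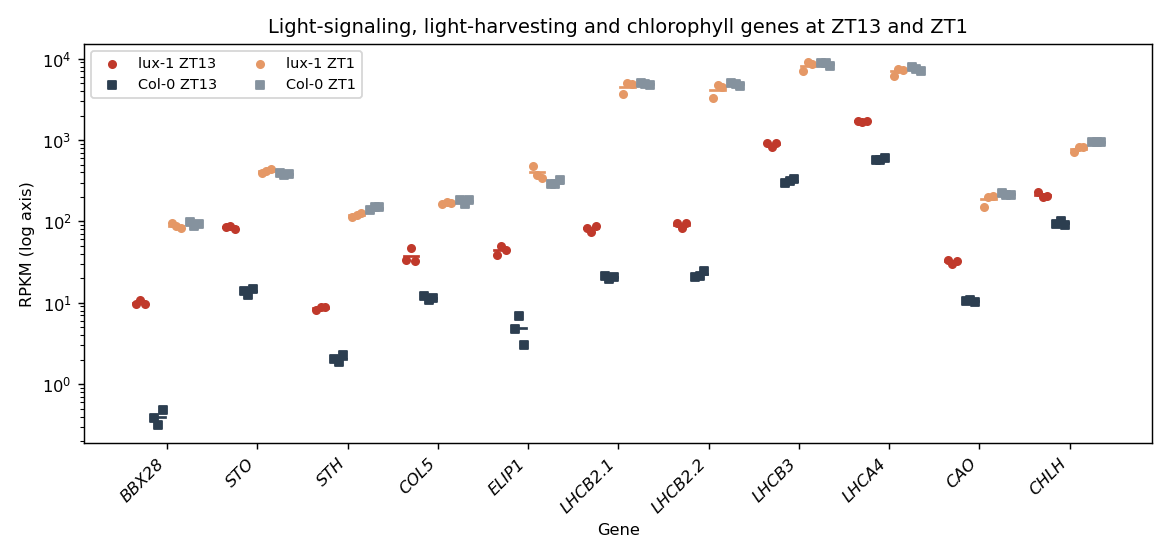
RPKM (log axis) of 11 light-signaling, light-harvesting and chlorophyll genes, with 3 libraries and a mean line for each of *lux-1* at ZT13 (red circles), Col-0 at ZT13 (dark squares), *lux-1* at ZT1 (orange circles) and Col-0 at ZT1 (grey squares). At ZT13 each gene is higher in *lux-1*, as for *BBX28* at 9.56 to 10.9 against 0.313 to 0.482 RPKM, and the ZT1 values of both genotypes lie above those of ZT13.

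In the cold-response list more members fell than rose. Of 19 tested members, 6 passed as lower and 1 as higher, with a list median of -0.38. Without *lux-1* replicate 2 or Col-0 replicate 2, 9 passed as lower. *COR15A*, whose protein protects chloroplast membranes from freezing, had 116, 203 and 124 RPKM in *lux-1*, against 793, 558 and 661 RPKM in Col-0 (log2 fold change -2.21, SE 0.28, adjusted p = 1.5e-04). Its neighbor *COR15B* had 61.2, 35.4 and 44.7 RPKM in *lux-1*, while Col-0 had 182, 165 and 180.0 RPKM (log2 fold change -1.91, SE 0.24, adjusted p = 1.5e-04). The groups were well apart for both. *KIN2* had 459.6, 517 and 385 RPKM in *lux-1*, against 1439, 1030.4 and 1189 RPKM in Col-0 (log2 fold change -1.42, SE 0.18, adjusted p = 1.5e-04). *KIN1* and *COR413IM1* passed at log2 fold changes of -1.22 and -0.96.

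The *CBF* genes encode the AP2-type activators of this group, and they lie side by side on chromosome 4. They did not move together. *CBF1* had 4.24, 5.99 and 6.48 RPKM in *lux-1*, against 15.003, 28.7 and 32.2 RPKM in Col-0 (log2 fold change -1.95, SE 0.27, adjusted p = 3.0e-04). *CBF3* rose, with 3.62, 2.90 and 6.62 RPKM in *lux-1*, against 1.32, 0.323 and 0.996 RPKM in Col-0 (log2 fold change 1.49, SE 0.32, adjusted p = 0.015). *CBF2* did not pass, at 26.8, 28.6 and 47.0 RPKM in *lux-1*, against 13.5, 26.2 and 25.4 RPKM in Col-0 (adjusted p = 0.4, log2 fold change 0.64). The copies are similar in sequence, and how reads that fit several of them were assigned is not given in the sources used here.

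**Figure D3:**
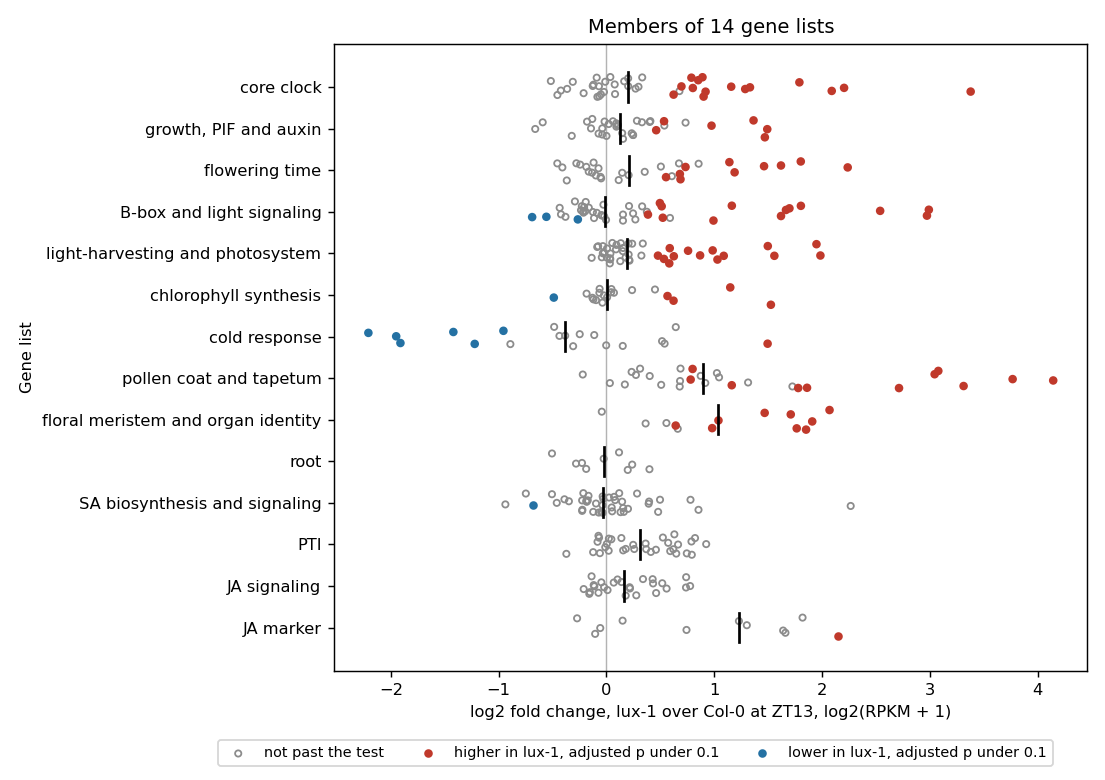
Log2 fold change at ZT13, *lux-1* over Col-0 on the log2(RPKM + 1) scale, of each tested member of 14 gene lists. Filled points passed at an adjusted p below 0.1 (red higher, blue lower in *lux-1*), open points did not, and black lines are list medians, from -0.38 for cold response to 1.23 for jasmonate (JA) markers.

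Among the largest rises were genes of flowers. The pollen coat and tapetum list covers genes of the anther's nurse layer and of the lipid-rich coat it lays on pollen. Of its 31 members 28 passed the filter on low values, and 11 passed the test as higher and 0 as lower. The filter keeps a gene that is expressed in any one group, so these counts describe the members that could be seen. *GRP19*, an oleosin-type pollen coat gene, had 25.0, 16.9 and 10.8 RPKM in *lux-1* and no read in any Col-0 library (adjusted p = 3.2e-05). Set against 3 reads over the Col-0 group, it was at least 71.9-fold higher. *GRP17*, of the same cluster, had 10.6, 10.8 and 3.10 RPKM in *lux-1*, and no read in Col-0, at least 169.6-fold higher (adjusted p = 1.8e-04). In *ATA27*, a tapetum-specific glucosidase gene, the *lux-1* libraries had 15.9, 7.83 and 5.55 RPKM, at least 200.1-fold above the same limit for Col-0 (adjusted p = 2.6e-04).

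AT1G66850, of the same list, had 15.01, 16.3 and 8.07 RPKM in *lux-1* and no read in Col-0, at least 51.7-fold higher (adjusted p = 1.8e-04). Other pollen coat members had a few reads in Col-0. *GRP20* had 9.56, 7.997 and 3.76 RPKM in *lux-1*, against 0.186, 0.152 and 0.175 RPKM in Col-0 (log2 fold change 2.71, SE 0.30, adjusted p = 3.1e-05). *EXL4*, an extracellular lipase of the pollen coat, had 11.2, 9.86 and 4.25 RPKM in *lux-1*, while Col-0 had 0.0833, 0.0680 and 0 RPKM (log2 fold change 3.08, SE 0.42, adjusted p = 2.8e-04). *GRP14* and *EXL6* passed at log2 fold changes of 1.86 and 1.78. *LTP12*, an anther lipid transfer gene outside the list, had 12.3, 6.07 and 5.25 RPKM in *lux-1*, against 0, 0.195 and 0 RPKM in Col-0 (log2 fold change 2.98, SE 0.53, adjusted p = 0.0038). Across all called genes, 20 of the 148 higher ones had no read in the 3 Col-0 libraries. In 11 of the 31 listed pollen coat and tapetum genes Col-0 had no read, and every one of the 31 had reads in *lux-1*. Each Col-0 library had reads for 21852 to 21898 of the 25218 transcripts, and each *lux-1* library for 22268 to 22712. The share of all transcripts without reads in all 3 Col-0 libraries was not counted, so whether 11 of 31 is unusual was not tested.

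The floral identity list holds MADS-box and related regulators that specify the flower and its organs. Of 13 tested members out of 16, 9 passed as higher and 0 as lower, with a median of 1.04. *SEP1* had 19.0, 5.49 and 7.10 RPKM in *lux-1*, against 1.59, 1.02 and 1.72 RPKM in Col-0 (log2 fold change 2.07, SE 0.35, adjusted p = 0.002). *AP1*, which marks the young flower, had 7.26, 4.40 and 4.12 RPKM in *lux-1*, against 0.781, 0.182 and 1.05 RPKM in Col-0 (log2 fold change 1.91, SE 0.51, adjusted p = 0.056). *SEP3* had 10.1, 3.91 and 2.51 RPKM in *lux-1*, while Col-0 had 1.03, 0.559 and 0.538 RPKM (log2 fold change 1.76, SE 0.46, adjusted p = 0.048). Replicate 1 had the highest value of the *lux-1* libraries for each of these. *AP3* and *PI*, which specify petals and stamens, had log2 fold changes of 1.47 and 1.71, and *SEP2* had 1.85. *CAL*, a relative of *AP1*, had 0.479, 0.295 and 0.984 RPKM in *lux-1* and no read in Col-0, at least 5.73-fold higher (adjusted p = 0.038).

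These calls were weaker than those of the pollen coat list. Without *lux-1* replicate 1, 3 floral members passed, and without Col-0 replicate 1, 2 or 3 the counts were 5, 2 and 5. Without *lux-1* replicate 2, 7 passed. *SEP1* passed under every alternative tried, while *AP1*, *SEP3* and *AP3* lost their calls under 5, 5 and 3 of the 19. The pollen coat count stayed at 11 or 12 without any single library. Summed over the list, floral identity genes reached 92.8, 47.1 and 49.3 RPKM in the *lux-1* libraries, against 30.0, 23.6 and 33.4 RPKM in the Col-0 libraries. The pollen coat and tapetum sums were 201, 112 and 84.9 RPKM in *lux-1*, against 40.3, 37.4 and 39.7 RPKM in Col-0. The root list did not separate the groups, with sums of 36.1, 32.8 and 35.04 RPKM in *lux-1*, against 37.3, 33.8 and 36.8 RPKM in Col-0, and 0 of its 9 tested members passed. In whole plants a larger share of floral tissue and more transcript per floral cell cannot be told apart. The part of floral tissue in the other differences was not tested.

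**Figure D4:**
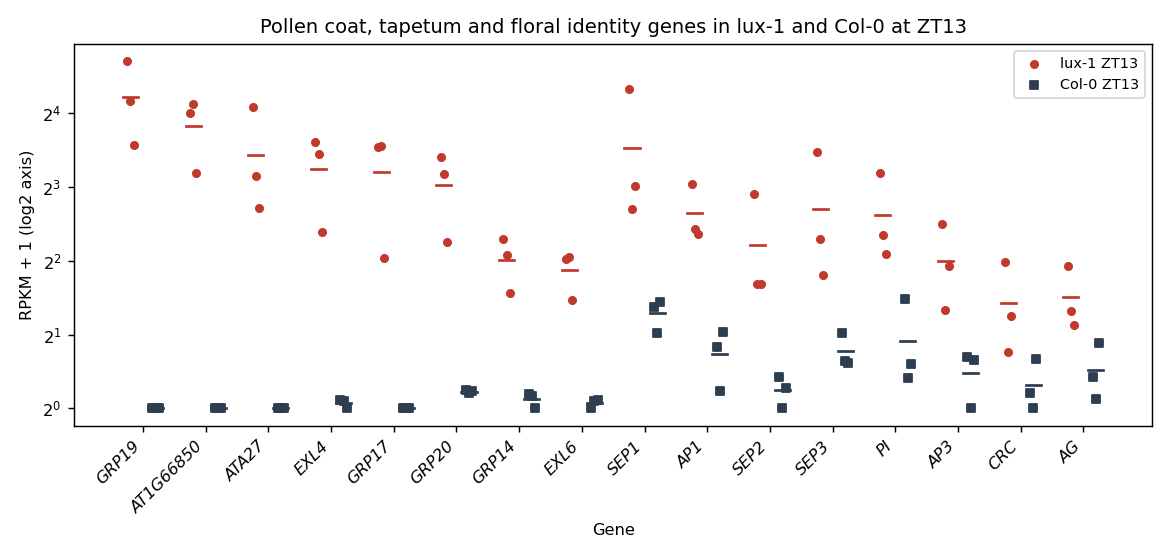
RPKM + 1 (log2 axis) of 8 pollen coat and tapetum genes (left) and 8 floral identity genes (right) in the 3 *lux-1* libraries (red circles) and the 3 Col-0 libraries (dark squares) at ZT13, with a line at each group's mean. *GRP19* lies at 10.8 to 25.0 RPKM in *lux-1* and at 0 in Col-0, and replicate 1, the left point of each group, is the highest *lux-1* library for the floral identity genes shown.

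Other higher genes were led by a single library. Replicate 3 led *MAH1*, which oxidizes alkanes in stem wax, with 4.63, 3.28 and 21.5 RPKM in *lux-1*, against 0.0576, 0.188 and 0.108 RPKM in Col-0 (log2 fold change 2.87, SE 0.63, adjusted p = 0.018). *CER4*, which makes the primary alcohols of wax, had 3.33, 1.93 and 6.89 RPKM in *lux-1*, against 0.116, 0.284 and 0 RPKM in Col-0 (log2 fold change 2.04, SE 0.27, adjusted p = 1.8e-04). *CER5*, a wax exporter, fell, with 73.4, 70.4 and 65.9 RPKM in *lux-1*, while Col-0 had 92.6, 89.5 and 95.1 RPKM (log2 fold change -0.40, SE 0.09, adjusted p = 0.015). Of 27 cuticular wax genes, 2 passed as higher and 1 as lower. Replicate 3 also led AT5G37940 and AT5G38000 of the alkenal reductase family. AT5G37940 had 1.59, 2.91 and 36.2 RPKM in *lux-1*, against 0.243, 0.198 and 0.229 RPKM in Col-0 (log2 fold change 2.56, SE 0.74, adjusted p = 0.086), and it lost its call under 9 of the 19 alternatives. In that family 3 of 10 tested genes passed as higher, the third being AT5G16960 at a log2 fold change of 1.36. Without Col-0 replicates 1, 2 or 3 or *lux-1* replicate 3 the counts were 1, 0, 1 and 1, and without *lux-1* replicate 2, 2 passed.

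Replicate 2 led a set outside the lists, chosen after their values were seen. *AOX1D*, an alternative oxidase gene of mitochondria, had 5.08, 53.3 and 15.01 RPKM in *lux-1*, against 6.74, 3.23 and 2.63 RPKM in Col-0 (log2 fold change 1.83, SE 0.54, adjusted p = 0.092). *SIGE* (SIG5), a light- and stress-induced sigma factor of the plastid, had 3.98, 20.5 and 8.03 RPKM in *lux-1*, while Col-0 had 2.60, 2.26 and 2.61 RPKM (log2 fold change 1.504, SE 0.32, adjusted p = 0.016). *DREB2C*, a heat- and drought-related activator, had 2.01, 10.4 and 3.98 RPKM in *lux-1*, against 0.671, 0.479 and 0.395 RPKM in Col-0 (log2 fold change 1.88, SE 0.41, adjusted p = 0.017). In *AOX1D* replicate 1 of *lux-1* lay within the Col-0 range, and the call was lost under 11 of the 19 alternatives, among them those without *lux-1* replicate 2 or 3 and without Col-0 replicate 2 or 3. *GLYI4*, a glyoxalase I family gene, had 3.22, 33.3 and 15.4 RPKM in *lux-1*, against 3.93, 2.27 and 0.926 RPKM in Col-0 (log2 fold change 2.09, SE 0.56, adjusted p = 0.058), and lost its call under 6 of the 19 alternatives. Replicate 1 led another such set, with *TSM1* and *SHT*, which modify pollen-wall phenolics in the tapetum. *TSM1* had 9.44, 1.72 and 2.80 RPKM in *lux-1*, against 0, 0.0999 and 0 RPKM in Col-0 (log2 fold change 2.205, SE 0.58, adjusted p = 0.052), and lost its call under 5 of them. *SHT* had 4.78, 1.22 and 2.34 RPKM in *lux-1* and no read in Col-0, at least 48.0-fold above 3 reads over the Col-0 group (adjusted p = 8.7e-04). Among the 148 higher genes, the highest *lux-1* library exceeded the next by more than 2 times in 43, of which 23 were led by replicate 1, 16 by replicate 2 and 4 by replicate 3.

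Genes on chromosome 4 were frequent among the lower ones. They made up 19 of the 47 lower genes, or 40.4%, and 25 of the 148 higher genes, or 16.9%, against 15.2% of all tested genes. AT4G20480 had 0.187, 0.288 and 0.481 RPKM in *lux-1*, against 38.8, 37.6 and 37.9 RPKM in Col-0 (log2 fold change -4.90, SE 0.10, adjusted p = 5.7e-16), the largest fall of all. AT4G19500 had 0.693, 0.384 and 0.692 RPKM in *lux-1*, while Col-0 had 19.9, 21.2 and 23.8 RPKM (log2 fold change -3.84, SE 0.09, adjusted p = 5.7e-15). AT4G19510, its neighbor, had 1.38, 1.16 and 1.39 RPKM in *lux-1*, against 17.5, 16.7 and 18.1 RPKM in Col-0 (log2 fold change -3.00, SE 0.09, adjusted p = 4.9e-13). These genes were low in every *lux-1* library. At ZT1 AT4G20480 was as low, at 0.101, 0 and 0.310 RPKM in *lux-1*, against 44.5, 48.8 and 46.6 RPKM in Col-0.

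In the opposite direction, AT4G24420 had 8.09, 12.3 and 7.44 RPKM in *lux-1* and no read in Col-0 (adjusted p = 6.9e-09), at least 31.2-fold above 3 reads over the Col-0 group. AT4G25310 had 3.40, 3.62 and 3.27 RPKM in *lux-1*, against 0.0810, 0.132 and 0 RPKM in Col-0, and AT4G27050 had 37.2, 36.8 and 42.7 RPKM in *lux-1*, against 10.1, 9.53 and 9.996 RPKM in Col-0. For these genes the contrast of the double mutant with *acd6-1* did not pass. AT4G20480 had 45.7 and 43.6 RPKM in *acd6-1lux-1*, against 50.5 and 48.4 RPKM in *acd6-1*, and AT4G24420 had 0 and 0.278 RPKM in *acd6-1lux-1*, against 0 and 0.277 RPKM in *acd6-1*. The *lux-1* effect differed between the backgrounds for 14 of the 44 called genes on chromosome 4 (adjusted p below 0.1 for the difference). It did so for 14 of the 151 called elsewhere and for 0.586% of all tested genes. The difference contains the contrast that called these genes, so the shares among called genes can be raised by that choice. Without chromosome 4 the calls were 123 higher and 28 lower. *CBF1* and *CBF3* are on this chromosome too, with log2 fold changes of -0.18 and 0.03 in the *acd6-1* background, which did not pass.

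The remaining large falls named by rank were also mostly on chromosome 4. AT4G28085 had 1.15, 2.37 and 2.96 RPKM in *lux-1*, against 11.1, 16.2 and 17.5 RPKM in Col-0 (log2 fold change -2.36, SE 0.31, adjusted p = 2.1e-04). *UNE15* and its neighbors AT4G13572 and AT4G13575 had log2 fold changes of -1.92, -1.53 and -1.73. *CRK6*, a cysteine-rich receptor-like kinase gene, had 11.6, 12.4 and 8.995 RPKM in *lux-1*, while Col-0 had 53.1, 23.1 and 39.6 RPKM (log2 fold change -1.66, SE 0.26, adjusted p = 0.0011). AT4G22530 and AT4G25070 had log2 fold changes of -1.5 and -1.37. The gene on chromosome 5 in this group, AT5G13260, had 7.39, 7.99 and 9.79 RPKM in *lux-1*, against 31.6, 25.8 and 31.9 RPKM in Col-0 (log2 fold change -1.71, SE 0.16, adjusted p = 2.2e-06). Among the large rises not yet given, AT4G19430, AT1G68875 and AT5G22430 had log2 fold changes of 2.70, 2.72 and 2.98.

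Defense genes showed few differences that passed. In the salicylic acid (SA) list 0 of 42 tested members passed as higher and 1 as lower, and the list median was -0.04. *PR1*, the SA marker, had 134, 976 and 314 RPKM in *lux-1*, against 246, 178 and 159.6 RPKM in Col-0 (adjusted p = 0.65, log2 fold change 0.85), with *lux-1* replicate 2 far above the rest. *ICS1*, the SA synthesis gene, had 9.38, 11.6 and 9.06 RPKM in *lux-1*, against 18.1, 12.7 and 13.4 RPKM in Col-0 (adjusted p = 0.3, log2 fold change -0.51). The groups did not overlap for *ICS1*, yet the difference was not past the threshold. *DMR6*, an SA hydroxylase gene, was the member that passed, with 51.4, 69.9 and 64.4 RPKM in *lux-1*, while Col-0 had 127, 75.8 and 102 RPKM (log2 fold change -0.68, SE 0.20, adjusted p = 0.093), and it lost its call under 10 of the 19 alternatives. *EDS1*, *PAD4*, *PBS3*, *NPR1*, *NPR3* and *ACD6* did not pass, at log2 fold changes of 0.05, -0.18, 0.40, -0.04, 0.50 and -0.35.

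In the list of pattern-triggered immunity (PTI) 0 of 32 genes passed, with a median of 0.31. *WRKY33*, a defense regulator, had 148, 192 and 189 RPKM in *lux-1*, against 87.4, 133 and 125 RPKM in Col-0 (adjusted p = 0.21, log2 fold change 0.62). *WRKY22* and *MPK3* had log2 fold changes of 0.59 and 0.14. DESeq2 called 5 PTI genes higher. In the JA lists 0 of 26 signaling genes and 0 of 23 biosynthesis and turnover genes passed, against 3 and 3 higher in a fit of the 6 libraries alone and 2 and 2 by DESeq2. *JAZ1*, a repressor of JA responses, had 484, 577 and 494 RPKM in *lux-1*, against 349.7, 418 and 384 RPKM in Col-0 (adjusted p = 0.32, log2 fold change 0.43). *JAZ5*, *JAZ7*, *JAZ8* and *MYC2* had log2 fold changes of 0.56, 0.74, 0.78 and 0.18.

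The JA marker list had the highest median of all lists, 1.23, but 1 of its 11 genes passed. *PDF1.2C*, a defensin gene, had 122, 44.99 and 86.5 RPKM in *lux-1*, against 26.5, 14.4 and 12.3 RPKM in Col-0 (log2 fold change 2.15, SE 0.64, adjusted p = 0.095). Its near copy *PDF1.2A* had 171, 114 and 142 RPKM in *lux-1*, while Col-0 had 63.7, 39.0 and 33.7 RPKM (adjusted p = 0.17, log2 fold change 1.66). *VSP1*, a vegetative storage protein gene, had 1729.5, 2448 and 1603 RPKM in *lux-1*, against 849.6, 929 and 573 RPKM in Col-0 (adjusted p = 0.41, log2 fold change 1.301). *VSP2* had a log2 fold change of 0.74. For all 4 genes the *lux-1* libraries lay above the Col-0 libraries without overlap. Of all tested genes, 19.1% had no overlap in either direction. The standard errors of the 4 were between 0.52 and 0.67 on the log2 scale. Over the 11 markers the log2 fold changes ran from -0.27 to 2.15. In a fit of the 6 libraries alone, 5 of the 11 passed, and *PDF1.2C* lost its call under 11 of the 19 alternatives.

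Further lists changed little. In starch and sugar metabolism 1 of 24 genes passed as higher and 2 as lower. *AMY3*, a chloroplast amylase gene, had 89.6, 82.7 and 80.1 RPKM in *lux-1*, while Col-0 had 58.9, 55.1 and 56.2 RPKM (log2 fold change 0.56, SE 0.07, adjusted p = 2.1e-04). *SEX1*, a starch-phosphorylating enzyme gene, and *QQS*, a regulator of starch content, passed as lower at log2 fold changes of -0.33 and -0.997, and they lost their calls under 8 (*SEX1*) and 11 (*QQS*) of the 19 alternatives. Without Col-0 replicate 1 or 3, 0 starch members passed as lower. In the dark- and starvation-induced list *DIN10* alone of 21 passed (log2 fold change 0.79), in the flavonoid and anthocyanin list *MYB12* alone of 22 (0.70), and in the touch and wounding list *DREB26* alone of 15 (0.84). In the leaf senescence list 0 of 16 genes passed, and in the glucosinolate and camalexin list 0 of 22.

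The *lux-1* effect at ZT13 was then set beside the same contrast in the *acd6-1* background. There 99 genes were called higher (0.457%) and 32 lower (0.148%), 0.605% together, and without the fold criterion 1.15% of the tested genes passed as higher and 0.346% as lower. Of the 148 genes higher in *lux-1* at ZT13, 114 had the same sign in that contrast, 57 passed in the same direction and 0 in the opposite one. Called genes common to both made up 35.8% of the 148 and 53.5% of the 99. Of the 47 lower genes, 31 had the same sign and 4 passed in the same direction, again with 0 opposite. The gene called lower in both was 1, which is 2.13% of the 47 and 3.13% of the 32. The *lux-1* effect itself differed between the backgrounds for 127 genes (0.586%), 0.342% with a positive and 0.245% with a negative difference. Among them were 17 of the 148, 5 positive and 12 negative, and 11 of the 47, all positive. That difference contains the contrast that chose the 148 and 47, which favors passing and a sign opposite to the call. The number of 127 rested on single libraries. It was 28 without *acd6-1lux-1* replicate 1 and 337 without *lux-1* replicate 1, it was 50 without *lux-1* replicate 2, and only without *lux-1* replicate 3 (115) or Col-0 replicate 2 (96) did it stay within 1.5 times.

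Light and clock genes were among those that rose in both backgrounds. *LUX* had 70.8 and 65.3 RPKM in *acd6-1lux-1*, against 8.17 and 6.10 RPKM in *acd6-1* (log2 fold change 3.10, SE 0.21, adjusted p = 1.1e-07). *BBX28* had 12.9 and 10.1 RPKM in *acd6-1lux-1*, against 0.591 and 0.544 RPKM in *acd6-1* (log2 fold change 2.98, SE 0.14, adjusted p = 6.1e-10). Antenna genes changed more there. *LHCB3* had 599 and 479 RPKM in *acd6-1lux-1*, against 87.7 and 90.1 RPKM in *acd6-1*, and its log2 fold change exceeded that in the Col-0 background by 1.08 (SE 0.17, adjusted p = 0.0076). *LHCB1.5* did so by 1.95 (SE 0.28, adjusted p = 0.0042). In the light-harvesting and photosystem list 24 of 42 genes passed as higher in the *acd6-1* background, and the difference between backgrounds passed for 10. The cold genes did not follow so closely. *COR15A* had 37.6 and 33.9 RPKM in *acd6-1lux-1*, against 108 and 74.7 RPKM in *acd6-1* (log2 fold change -1.31, SE 0.35, adjusted p = 0.097), and for *COR15B* the difference between backgrounds passed (1.63 on the log2 scale, SE 0.39, adjusted p = 0.097).

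**Figure D5:**
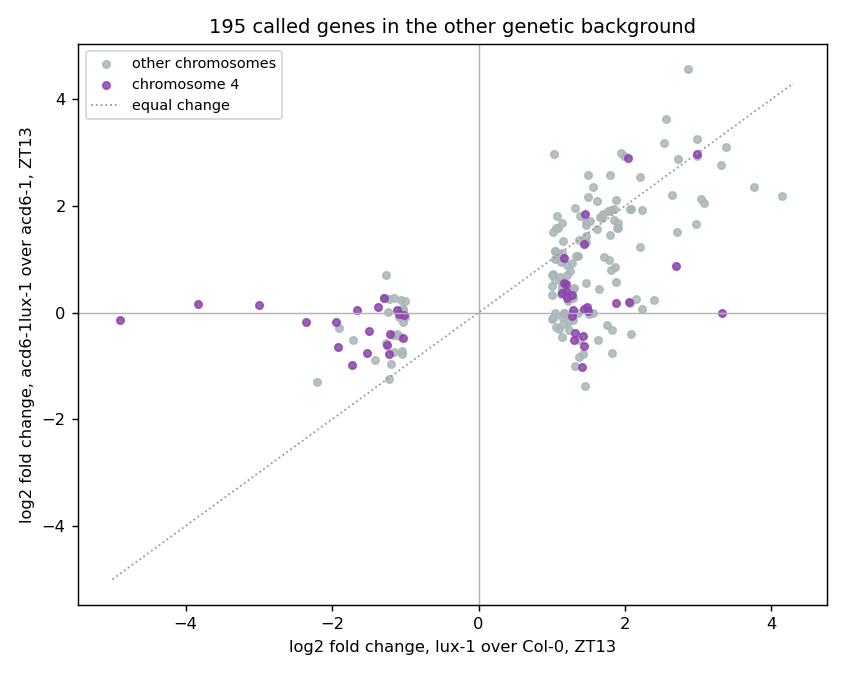
Log2 fold changes at ZT13 of the 195 called genes, *lux-1* over Col-0 (x axis) and *acd6-1lux-1* over *acd6-1* (y axis), both on the log2(RPKM + 1) scale, with genes of chromosome 4 in purple, the others in grey and a dotted line of equal change. Of the 148 genes at the right 114 lie above 0 on the y axis, while AT4G20480 at the far left lies at -0.14.

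At ZT1 the *lux-1* effect was different for many of the same genes. There 1.2% of the tested genes were called higher and 1.15% lower (2.34% together), and without the fold criterion 13.2% and 4.61% passed. The effect at ZT13 minus that at ZT1 passed for 2848 genes (13.1%), positive for 3.75% of the tested genes and negative for 9.4%. It passed for 82 of the 148 higher genes, positive in 81, and for 24 of the 47 lower genes, negative in 22. The difference contains the ZT13 contrast that selected these genes, so its share and sign among them partly follow from the calls. Without Col-0 replicate 1 of ZT13 the 2848 became 1795, and without Col-0 replicate 2 of ZT1 1881. *BBX28* had 94.3, 88.1 and 82.8 RPKM in *lux-1* at ZT1, against 99.0, 88.4 and 91.8 RPKM in Col-0 (adjusted p = 0.74, log2 fold change -0.07). *PIF4* averaged 53.3 ± 11.8 RPKM in *lux-1* at ZT1, against 51.7 ± 2.82 RPKM in Col-0 (SD, n = 3 each). For both, the 2 genotypes overlapped in the morning and were apart in the evening. *GI* was higher at both times, with a log2 fold change of 1.02 at ZT1 (adjusted p = 2.0e-04), and so was *LUX*, at 0.68 (adjusted p = 0.017).

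Some genes changed sign with the time of day. *PIF5* had 89.3, 103 and 101 RPKM in *lux-1* at ZT1, against 122, 128 and 133 RPKM in Col-0 (log2 fold change -0.38, SE 0.11, adjusted p = 0.029), lower where it was higher at ZT13. *CDF2* had 8.85, 6.74 and 6.87 RPKM in *lux-1* at ZT1, against 10.8, 11.4 and 11.0 RPKM in Col-0 (log2 fold change -0.52, SE 0.18, adjusted p = 0.073). *DREB26*, an AP2-type gene of the touch list, had 7.30, 8.28 and 6.92 RPKM in *lux-1* at ZT1, against 36.5, 37.5 and 33.1 RPKM in Col-0 (log2 fold change -2.11, SE 0.13, adjusted p = 5.5e-09). *COR413IM1* went the other way, higher in *lux-1* at ZT1 by a log2 of 1.24 (adjusted p = 1.5e-05) and lower at ZT13. Of the 148 genes higher at ZT13, 29 passed in the same direction at ZT1 and 7 in the opposite one, and of the 47 lower genes 19 and 3. *FUL* and *SEP1* belonged to those that were higher at both times, with log2 fold changes at ZT1 of 1.57 and 1.84.

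Levels in Col-0 at the 2 times are given beside these calls as a description. Of the 148 genes higher in *lux-1* at ZT13, 43 had a Col-0 mean at ZT1 that was more than 1 log2 unit above that at ZT13, and 4 one that was more than 1 below. Of the 47 lower genes 2 were above and 19 below. Both counts use the same Col-0 libraries at ZT13 as the calls. The same counts over all tested genes were not made, so whether these are unusual was not tested.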

How the data were processed

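Total RNA of whole plants was sequenced as single reads (TruSeq, HiSeq). The table deposited by the authors holds RPKM per transcript on TAIR10, made after CASAVA; no aligner, counter or strand setting is named (not given in the sources used here). One column of the authors' own ratio was not used. All RPKM values gave whole reads (100% within 0.001 read) when multiplied by the deposited counts of mapped reads, and these reads served count-based alternatives. Lengths behind them were multiples of 3 in 97.4% of transcripts, that is, coding length. Of 25218 transcripts, 24867 matched a symbol in RefSeq (TAIR10.1). Gene positions entered no test and served to list overlapping and neighboring genes.

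Genes with a mean RPKM above 0.3 in any of 8 groups were tested by limma (3.58.1, R 4.3.3) on log2(RPKM + 1), with all 22 libraries sharing the spread and Benjamini-Hochberg adjustment. Called means an adjusted p below 0.1 and a log2 fold change beyond 1; list members pass at an adjusted p below 0.1. A fold against a group without reads was set against 3 reads over that group and covers counting error only. The study took triplicate biological samples, and duplicates of the *acd6-1* groups at ZT13; p-values measure the spread among them. The edgeR (4.0.16), limma voom and DESeq2 (1.42.0) fits were alternatives, as were other pseudocounts, filters, scalings, blocks and the omission of each library. Only the main fit was tested on simulated data.

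Members and lists were chosen with earlier results of these data known. Named genes are those the study discusses, the 15 largest non-overlapping rises and falls, and up to 6 members of each list by adjusted p; any other was chosen after its values were seen. Of 138 such genes, 35 overlap another annotated gene, so that reads may be shared. Outside these 138, *TSF*, *ELF4-L2*, *RVE7*, *BBX14*, *BBX15*, *COL4*, *KIN1* and *PI* are named as further members of their lists. They were not checked singly for overlap or under the alternatives.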

Additional observations from a re-analysis of the deposited data

Results flagged for a closer look

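The results here were singled out because the *lux-1* effect differed between times or backgrounds by a test of the difference itself (limma, adjusted p below 0.1). Groups of 3 were too small to test for single outlying libraries, and counts without each library are given below. The difference passed for 2848 genes between ZT13 and ZT1 and for 127 genes between the *acd6-1* and Col-0 backgrounds. Both differences contain the *lux-1* contrast at ZT13 by which genes were called or ranked for naming. Passing and sign among such genes partly follow from that choice.

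Between the times, 13 named genes passed in opposite directions, and the values are the log2 fold change at ZT13 minus that at ZT1. Clock genes that were higher in *lux-1* at ZT13 and lower at ZT1 were *CCA1* (1.301), *LNK4* (1.43), *RVE1* (1.36) and *RVE8* (0.97). The same held for the flowering repressors *CDF1* (1.11) and *CDF2* (2.75), the growth regulator *PIF5* (1.87), the stress-related *DREB26* (2.95), and *LHCB4.2* (1.38) and *CHLH* (1.42) of photosynthesis. Lower at ZT13 and higher at ZT1 were *COR413IM1* (-2.197), *GLK1* (-0.87) and *SEX1* (-0.88).

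Between the backgrounds the values are the log2 fold change in the *acd6-1* background minus that in the Col-0 background, both at ZT13. Among the named antenna genes, 6 rose more in the *acd6-1* background, with differences of 1.95 for *LHCB1.5*, 1.14 for *LHCB4.2*, 1.08 for *LHCB3*, 1.04 for *LHCB2.1*, 0.95 for *LHCB2.2* and 0.80 for *LHCA4*. Positive differences were also found for genes that were lower in *lux-1*: *COR15B* (1.63), *COR413IM1* (1.25), *GLK1* (0.63), *CER5* (0.68) and AT5G13260 (1.202). On chromosome 4 the differences were 4.75 for AT4G20480, 4.003 for AT4G19500, 3.14 for AT4G19510, 2.18 for AT4G28085, 1.48 for AT4G25070 and 1.07 for *CLT2*, a plastid thiol transporter gene. Genes higher in *lux-1* on that chromosome had negative ones, -3.33 for AT4G24420, -1.86 for AT4G25310, -1.69 for AT4G27050 and -1.38 for *J11*. Negative differences elsewhere were those of *XTH3* (-2.17) and AT3G07850 (-1.56).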

How the results depend on the processing

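Of the 138 genes named by the rules above or chosen after their values were seen, 111 passed the test. Of these, 78 passed under all alternatives run and 0 turned round. *EDS1*, *NPR1* and *MYC2*, which did not pass, changed sign under some. Counts moved more than single genes. The 148 higher genes became 237 with a pseudocount of 0.1, 283 by edgeR, 309 by DESeq2, 252 by a ratio of mean RPKM over 2, and 451 without a fold criterion. The 47 lower genes became 73 by that ratio, 401 without a fold criterion, and 28 outside chromosome 4. Leaving out each library gave 114 to 231 higher and 32 to 60 lower genes, of which 102 to 113 and 30 to 42 were among the 148 and 47. Voom shared 123 and 42 of these calls, edgeR 145 and 41, and DESeq2 129 and 41. The 2848 genes that differed between times became 1761 by median-of-ratios scaling, 1548 by voom, 1666 by edgeR and 1866 by DESeq2, and 1795 to 2989 without single libraries. The 127 genes that differed between backgrounds became 75 by median-of-ratios scaling, 67 with the groups compared alone, 49 by voom, 68 by edgeR and 315 by DESeq2, and 28 to 337 without single libraries. The causes were not tested. The titles' replicate numbers do not pair the libraries: same-numbered *lux-1* and Col-0 libraries had deviation correlations of -0.20, -0.22 and 0.16. With the replicate block by titles 139 genes were higher and 46 lower, and with the block by library number 143 and 46. Scaling moved the median of all genes by less than 0.1. Counts by list and outside chromosome 4 were added after seeing the data. Depth limits genes with a few reads, whose folds are bounds against 3 reads.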

Other observations

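Some large differences fell outside every gene list and are given here as values, chosen after they were seen. *XTH3*, of the xyloglucan-modifying family of cell-wall enzymes, had 4.72, 7.25 and 2.08 RPKM in *lux-1* and no read in any Col-0 library, at least 52.1-fold above 3 reads over the Col-0 group (adjusted p = 6.8e-05), while it had 0.265 and 0.0842 RPKM in *acd6-1lux-1* and no read in *acd6-1*. *AGP23*, an arabinogalactan peptide gene, had 3.96, 0.405 and 0.813 RPKM in *lux-1* and no read in any Col-0 library, at least 4.09-fold above 3 reads over the Col-0 group (adjusted p = 0.044). AT3G07850 had 2.43, 2.71 and 1.02 RPKM in *lux-1* and no read in any Col-0 library, at least 34.9-fold above 3 reads over the Col-0 group (adjusted p = 7.0e-06). AT5G48210 had 6.61, 0.483 and 1.94 RPKM in *lux-1* and no read in any Col-0 library, at least 12.0-fold above 3 reads over the Col-0 group (adjusted p = 0.038). Replicate 1 was the highest *lux-1* library for *AGP23* and AT5G48210, and replicate 2 for *XTH3* and AT3G07850.

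*ABCF5*, of the ABC transporter superfamily, had 111, 138 and 104 RPKM in *lux-1*, against 51.5, 51.9 and 53.7 RPKM in Col-0 (log2 fold change 1.14, SE 0.10, adjusted p = 6.9e-07), and passed under every alternative tried. *PSAD-2*, a photosystem I subunit gene, had 525, 449 and 501 RPKM in *lux-1*, against 219, 250.2 and 229.6 RPKM in Col-0 (log2 fold change 1.07, SE 0.14, adjusted p = 1.2e-04).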
